A study of Homo sapiens with 7 samples.

Results

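The peak lists of an antibody to the C terminus of NuMA and of an antibody to its N terminus were compared on chromosomes 1 to 22, X and Y. Both came from wild-type cells of HCT116, an established line of human colon cancer, with 1 CUT&Tag library for each antibody. The labels call the assay CUT&Tag, whereas the names of the NuMA peaks call it ChIP-seq, and the labels were followed. In CUT&Tag an antibody brings the Tn5 transposase to its target, and the enzyme cuts and tags the DNA nearby. Each assay used 10000 cells, per the labels' protocols. The 7 samples of the series also held 4 histone H1 libraries of the same line, 2 labelled wild type and 2 labelled NuMA depletion, and an immunoglobulin G library of wild-type cells that was not analysed here. The members were taken by antibody: 14240 C-terminal and 19518 N-terminal peaks, or 33758 of the 47959 peaks in the 6 lists analysed. All comparisons of the antibodies are descriptions without a p-value, since neither has a replicate, and any difference holds for these libraries alone. The antibody, the library and its depth cannot be told apart.

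NuMA is a large nuclear protein with a long coiled coil between a globular head at its N terminus and a tail at its C terminus. In dividing cells it gathers microtubules at the spindle poles, where the tail holds the parts that bind microtubules and the cortical adaptor LGN. Between divisions it lies in the nucleus as part of the nuclear scaffold. The coil holds the ends apart, so an antibody to one end need not meet the same DNA as an antibody to the other, and the comparison asks whether both mark the same places on chromatin.

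The N-terminal library was the deeper of the 2. The deposited fold of a peak is its fragments at the summit over the local background, each with 1 added, and the deposited −log10 p is the Poisson tail of the same numbers. Both numbers were therefore recovered for each peak (see the processing). The lowest background of a list, which stands for the average over the genome, gave 2.93 M fragments for the C-terminal and 4.86 M for the N-terminal library with an assumed genome of 2.7 Gb, a ratio of 1.66. The median peak had 27 fragments at its summit in the C-terminal list (quartiles 17 and 39) and 58 in the N-terminal list (quartiles 40 and 80). A count at a summit thus had a wider relative counting error in the C-terminal list.

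Over the whole lists N-terminal peaks were slightly wider. The median width was 713.5 bp in the C-terminal list (95% binomial interval of the median 705 to 720) and 789 bp in the N-terminal list (782 to 797), a ratio of 1.11. These intervals and the Wilson intervals below take each peak of a list as a separate draw, although peaks lie in clusters. They do not cover differences between libraries. The narrowest C-terminal peak had 439 bp and the narrowest N-terminal peak 429 bp, and the lists differed most among wide peaks. Peaks over 1000 bp made up 28.6% of the C-terminal (95% Wilson interval 27.9 to 29.4) and 35.7% of the N-terminal list (35.0 to 36.4). Peaks over 5000 bp numbered 30 in the C-terminal and 116 in the N-terminal list. On 22 of the 23 chromosomes from 1 to X the N-terminal median was the larger, with ratios from 1.06 on chromosome 17 to 1.41 on chromosome 21, and X was the exception at 0.94. With both lists held to the length of the shorter, the strongest peaks by −log10 q, the ratio of medians was 1.23. This cut left the C-terminal list whole and removed only the weakest N-terminal peaks. It therefore matched the lists in length and not in fragments.

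Width followed the number of fragments in both lists. From the lowest to the highest quartile of summit fragments the median width went from 563 to 1062 bp in the C-terminal list and from 573 to 1241 bp in the N-terminal list. Fold showed no such pattern, with Spearman correlations to width of −0.06 (C-terminal) and 0.02 (N-terminal) over the peaks of a list. At similar fragment counts, not scaled for depth, the C-terminal peaks were the wider. The C-terminal quartile of 27 to 39 fragments had a median width of 780 bp. The N-terminal quartiles of 7 to 40 and of 40 to 58 fragments had 573 and 714 bp. The widest peak of each list was the same place on chromosome 8. It ran from 145007964 to 145021697 in the C-terminal list, a width of 13734 bp, and from 145005925 to 145021310 in the N-terminal list, a width of 15386 bp. Its summit held 122 fragments (fold 4.68) with the C-terminal and 257 fragments (fold 6.95) with the N-terminal antibody.

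Peaks of both antibodies stood close together. The median gap from a peak to the nearest peak of its own list was 4.25 kb in the C-terminal list (interval 4.08 to 4.39) and 3.48 kb in the N-terminal list (3.36 to 3.60). Within 10 kb of another peak lay 67.7% of the C-terminal and 68.9% of the N-terminal peaks, and within 100 kb 91.4% and 91.7%. The lists differed at short range, where 18.6% of the C-terminal peaks (Wilson interval 18.0 to 19.3) and 22.4% of the N-terminal peaks (21.8 to 23.0) had a neighbour within 1 kb. No gap was under 440 bp in the C-terminal or under 430 bp in the N-terminal list, 1 bp more than the narrowest peak of each, so closer peaks would have been reported as 1. The ratio of the median gaps, N-terminal over C-terminal, was 0.82, and it turned to 1.03 with both lists held to the same number of peaks.

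**Figure D1:**
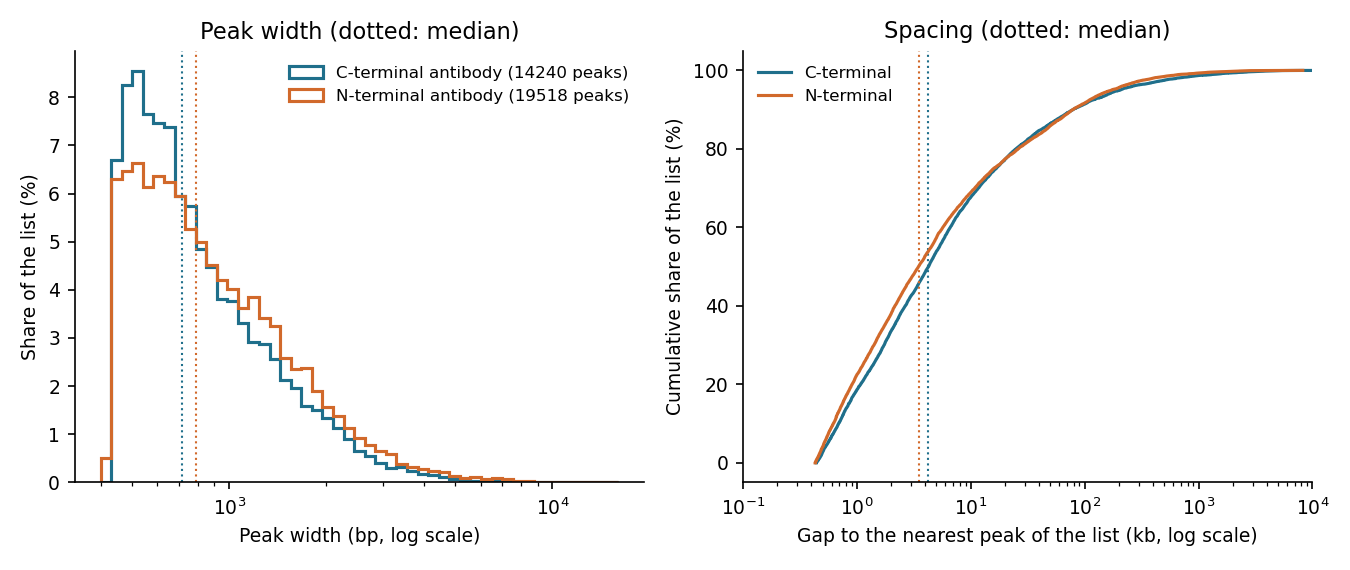
Width of the peaks as a share of each list (left, bp on a log axis) and cumulative share of peaks by gap to the nearest peak of the same list (right, kb on a log axis), with dotted medians at 713.5 and 789 bp and at 4.25 and 3.48 kb for the C-terminal and N-terminal antibody. The N-terminal histogram lies above the C-terminal one among peaks over 1000 bp, and the spacing curves part at short gaps and run together beyond 10 kb.

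Most of the genome held no peak of either antibody. Of 30942 bins of 100 kb, 86.0% were empty of C-terminal and 81.3% of N-terminal peaks, and 24567 were empty of both. The C-terminal list put 75.4% of its peaks into its own densest 5% of these bins and the N-terminal list 69.0%, a difference of 6.42 percentage points. In 3106 bins of 1 Mb the shares were 58.1% and 53.7%, a difference of 4.38 points. The variance of the counts over their mean was 7.48 (C-terminal) and 8.13 (N-terminal) at 100 kb and 40.8 and 46.4 at 1 Mb. Both measures depend on the length of a list. With the same number of peaks in both lists the difference in share was 3.93 points at 100 kb and 2.93 points at 1 Mb, in the same direction.

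The bins that were dense with one antibody were dense with the other. The Spearman correlation of the counts was 0.74 over the 100 kb bins and 0.87 over the 1 Mb bins, and the Pearson correlation was 0.92 and 0.98. Over all bins the Spearman correlation was 0.67 at 10 kb and 0.97 at 10 Mb. Most small bins were empty in both lists, and without these it was 0.23 at 10 kb (15862 bins), 0.62 at 100 kb (6375 bins), 0.84 at 1 Mb (1759 bins) and 0.97 at 10 Mb (305 bins). Within single chromosomes the Spearman correlation at 1 Mb ran from 0.73 on X to 0.99 on chromosome 19 with a median of 0.86, and at 100 kb from 0.58 on chromosome 13 to 0.94 on chromosome 19 with a median of 0.69. Of the 155 densest bins of 1 Mb in each list, 138 (89.0%) were the same, and of the 1547 densest bins of 100 kb, 1252 (80.9%). Bins share the genome's mappability, base composition and copy number with both libraries, and the part of these in the correlation was not tested.

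Other pairs of lists from these cells were less alike in their bins. Over 1 Mb bins the Spearman correlation was 0.77 between the wild-type H1 libraries and 0.51 between the NuMA-depleted H1 libraries, which are replicates of 1 antibody. Between a NuMA list and an H1 list it lay between 0.32 and 0.61. With each list held to its 1480 strongest peaks by −log10 q, the NuMA antibodies correlated at 0.75, the H1 replicates at 0.55 (wild-type) and 0.50 (depleted), and NuMA with H1 between 0.16 and 0.24. NuMA peaks were also the more crowded: at 1480 peaks each, the densest 5% of 1 Mb bins held 76.8% of the C-terminal and 73.4% of the N-terminal peaks, and 34.0% to 37.0% of the H1 peaks. These are values of single lists and were not tested.

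**Figure D2:**
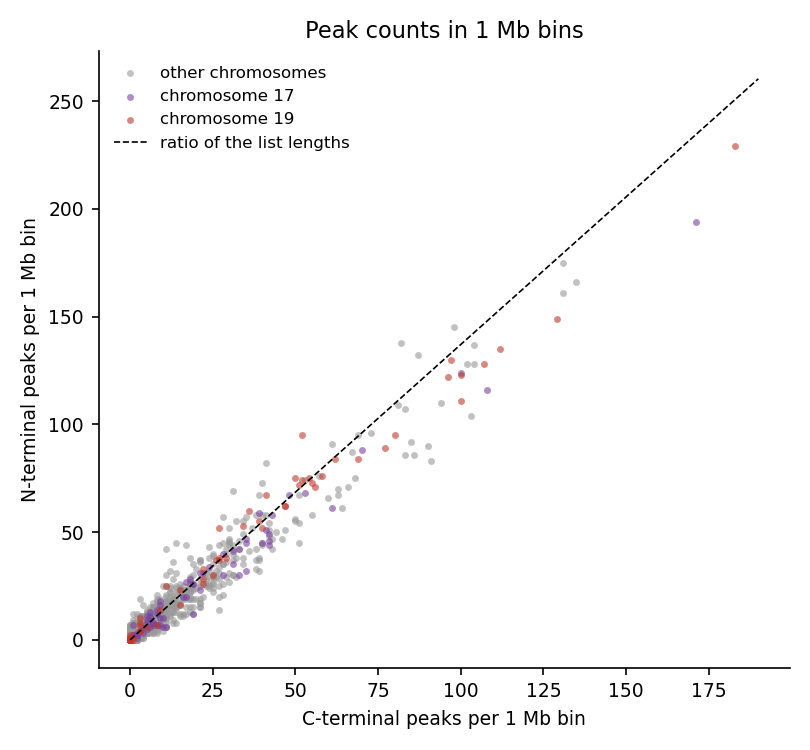
C-terminal (x axis) against N-terminal peaks (y axis) in each of 3106 bins of 1 Mb, with chromosomes 17 and 19 in colour and a dashed line at the ratio of the list lengths, 1.37. The points lie on both sides of the line among bins of few peaks and mostly under it in the densest bins, up to 183 C-terminal and 229 N-terminal peaks.

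The densest megabase was the same for both antibodies. Bases 1000001 to 2000000 of chromosome 19 held 183 C-terminal and 229 N-terminal peaks, and bases 79000001 to 80000000 of chromosome 17, second in both lists, held 171 and 194. The third place went to 2000001 to 3000000 on chromosome 16 in the C-terminal list (135 peaks, against 166 N-terminal peaks) and to 139000001 to 140000000 on chromosome 9 in the N-terminal list (175 peaks, against 131). At 100 kb the order was less alike. The C-terminal list was densest at 1200001 to 1300000 on chromosome 19, with 29 peaks against 25 with the N-terminal antibody, where it ranked 15. The N-terminal list was densest at 1400001 to 1500000 on the same chromosome, with 32 peaks against 21 with the C-terminal antibody, where it ranked 21. At 1700001 to 1800000 on chromosome 4 there were 14 C-terminal and 30 N-terminal peaks, ranks 132 and 2. Bases 144600001 to 144700000 of chromosome 8 ranked 2 in both lists, with 28 C-terminal and 30 N-terminal peaks, a tie in the N-terminal list. Bases 64000001 to 64100000 of chromosome 11 held 27 and 26 peaks, ranks 3 and 11.

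The surplus of N-terminal over C-terminal peaks was relatively largest in sparse bins. Over both lists there were 1.37 N-terminal peaks for each C-terminal peak. In the 900 bins of 1 Mb that held 1 to 5 peaks of both lists together this ratio was 2.41, with 657 C-terminal and 1582 N-terminal peaks. It was 1.54 in the 484 bins with 6 to 20 peaks, 1.32 in the 224 bins with 21 to 60 and 1.26 in the 151 bins with over 60, which held 57.1% of the C-terminal and 52.7% of the N-terminal list. By chromosome the ratio was lowest on chromosomes 17 (1.22), 11 (1.23), 22 (1.25) and 16 (1.30). It was highest on chromosomes 21 (2.25), 13 (2.00), X (2.00), 4 (1.84) and 18 (1.76). These held 106, 101, 137, 248 and 78 C-terminal peaks, in that order. Chromosome 21 also had a surplus in a dense bin: the megabase from base 45000001 held 31 C-terminal and 69 N-terminal peaks. This bin is among those chosen below for their difference in share, so it says nothing of the other chromosomes.

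Single megabases departed from this ratio in both directions. Chromosome 1 had 11 C-terminal and 42 N-terminal peaks between 3000001 and 4000000, which is 0.0772% of the C-terminal and 0.215% of the N-terminal list. Neighbouring bins of chromosome 21 came next, with 31 and 69 peaks between 45000001 and 46000000 and with 14 and 45 in the bin after it, up to base 47000000. The C-terminal antibody had the larger share of its list between 131000001 and 132000000 on chromosome 9, where 91 C-terminal and 83 N-terminal peaks made up 0.639% and 0.425% of the lists. The bin on chromosome 17 named above followed, and then the one between 64000001 and 65000000 on chromosome 11, with 103 C-terminal and 104 N-terminal peaks. These bins were chosen for the difference.

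**Figure D3:**
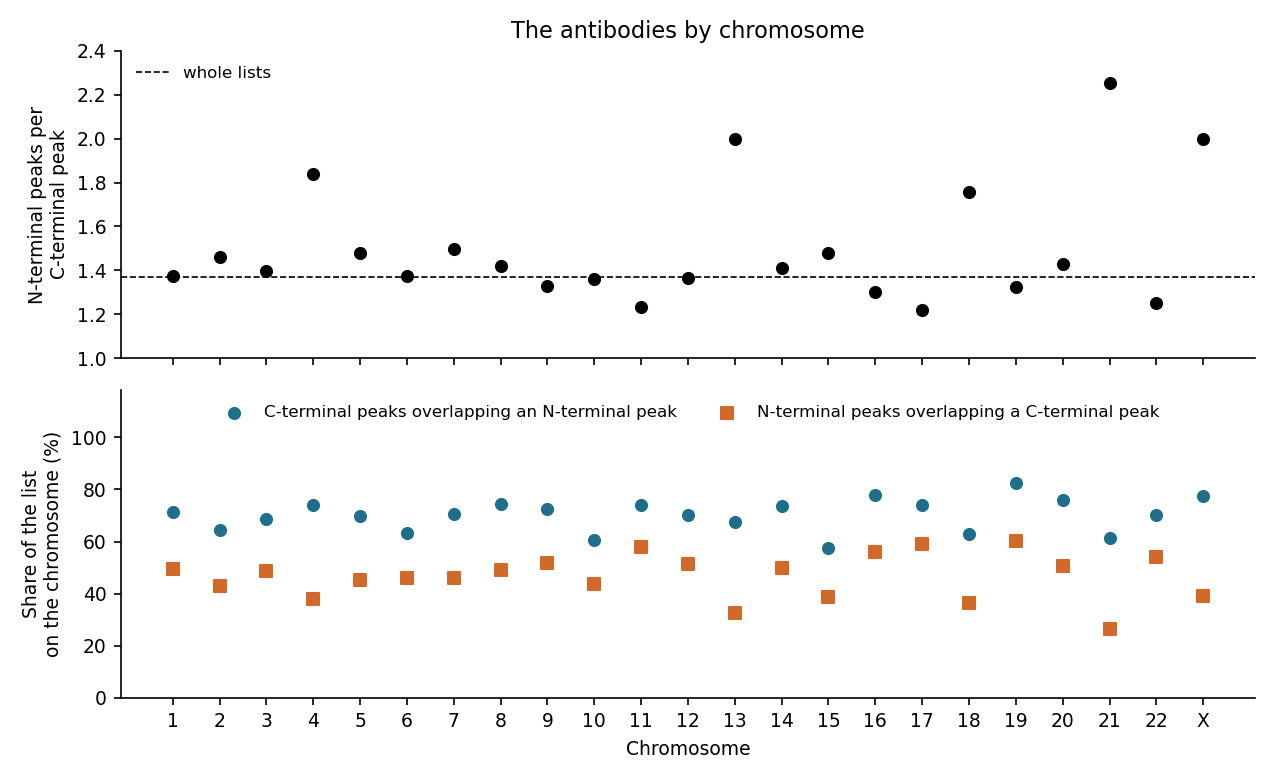
Number of N-terminal peaks for each C-terminal peak by chromosome (top, dashed line for the whole lists at 1.37) and share of each list's peaks on a chromosome that overlap a peak of the other list (bottom, %), chromosome Y with 8 and 11 peaks left out. The ratio reaches 2.25 on chromosome 21, where the share of N-terminal peaks with a partner is the smallest at 26.4%, and the C-terminal share is largest on chromosome 19 at 82.6%.

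Where the lists met, they mostly met 1 to 1. An overlap of 1 bp or more joined 10398 C-terminal peaks (73.0% of the list) to 10030 N-terminal peaks (51.4% of the list). Of these C-terminal peaks 10216 lay on a single N-terminal peak and 182 on 2 or 3, and of the N-terminal peaks 9536 lay on a single C-terminal peak and 494 on 2 to 5. For the pairwise values each peak was joined to its largest overlap where the choice was mutual, which gave 9860 pairs, 69.2% of the C-terminal and 50.5% of the N-terminal list. In 44.6% of the pairs the C-terminal peak lay inside the N-terminal one, in 12.8% the reverse, and in 42.6% they were staggered. The N-terminal peak was the wider in 6730 pairs (68.3%), with median widths of 819 bp (C-terminal) and 999 bp (N-terminal) and a Spearman correlation of the widths of 0.56.

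Summits of paired peaks lay close to each other. The median distance was 65 bp (interval 62 to 67) with quartiles of 20 and 220 bp, and it was 0 in 283 pairs. Within 100 bp lay 60.1% of the pairs (Wilson interval 59.1 to 61.0), within 200 bp 73.6%, within 500 bp 86.2%, and 5.46% lay more than 1000 bp apart, up to 6548 bp. In the direction of the reference neither antibody was shifted: the N-terminal summit lay to the right in 4748 and to the left in 4829 pairs. The median signed distance was 0 bp. No gene direction was used, so an offset tied to it could not show here. The distance was small next to the width, and 97.8% of the C-terminal summits lay inside the N-terminal peak and 90.4% of the N-terminal summits inside the C-terminal peak. By chromosome, Y left out, the median distance lay between 45 and 96.5 bp.

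The distance grew with width and shrank with fold. It went from 44 bp in the narrowest quartile of paired C-terminal peaks to 117 bp in the widest, and from 115 bp in the quartile of lowest C-terminal fold to 36 bp in that of highest fold. The 1362 pairs with summits over 500 bp apart had median widths of 1219.5 bp (C-terminal) and 1844 bp (N-terminal), against 735 and 819.5 bp in the 4328 pairs within 50 bp. Their folds were also less alike, with a Spearman correlation of 0.43 against 0.77.

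The fold of a peak in one list went with its fold in the other. Over the 9860 pairs the Spearman correlation of fold was 0.72, and within 23 chromosomes it lay between 0.52 (chromosome 21) and 0.78 (chromosome 18). A fold, as the authors deposited it, belongs to a peak within its list, so medians of fold stand side by side only. Over the pairs they were 5.04 (C-terminal) and 6.0 (N-terminal), and over the whole lists they lay the other way round, at 5.58 (C-terminal) and 5.0 (N-terminal). Of the 2149 paired C-terminal peaks in the highest quartile of fold of their list, 79.5% had an N-terminal partner in the highest quartile of its list. In the other direction the share was 46.2% of 3703 peaks. Both shares count the same 1709 pairs. Their difference restates that 2149 C-terminal but 3703 N-terminal peaks of the 9860 pairs were in the highest quartile of their list. Of the 142 C-terminal peaks in the top 1% by fold 113 were paired, of the 195 N-terminal ones 185, and 41 pairs were in the top 1% of both.

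The parts of the fold were more alike than the fold itself. The Spearman correlation over the pairs was 0.87 for the fragments at the summit and 0.94 for the local background. The fragments went from a median of 32 (C-terminal) to 66 (N-terminal), with a median ratio within pairs of 2.00 and quartiles of 1.60 and 2.35. The background went from 5.69 to 10.5, with a median ratio of 1.69. In 77.1% of the 978 pairs with summits within 10 bp and whole steps on both sides, the background was the same whole number of steps in both lists, and in 56.6% of 2476 such pairs with summits within 50 bp. A step was 0.562 fragments in the C-terminal and 0.951 in the N-terminal list, a ratio of 1.69. The sources used here do not state which control entered the calls. Whether the same control library entered both was not tested. If it did, the backgrounds are in part 1 measurement seen in both lists, and the correlation of 0.94 is no comparison of the antibodies. The part of the background in the correlation of fold of 0.72 was not tested either. Within classes of similar C-terminal background the correlation of fold ran from 0.35 (394 pairs below 1 step) to 0.66 (2598 pairs over 16 steps). The correlation of fragments ran from 0.36 to 0.81 over the same classes, below the 0.87 over all pairs. The part of the background in that value was not tested. The order of the widths also changed over these classes. Below 1 step the median was 688.5 bp for the C-terminal and 583.5 bp for the N-terminal peaks. Over 16 steps it was 994.5 bp for the C-terminal and 1437 bp for the N-terminal peaks.

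**Figure D4:**
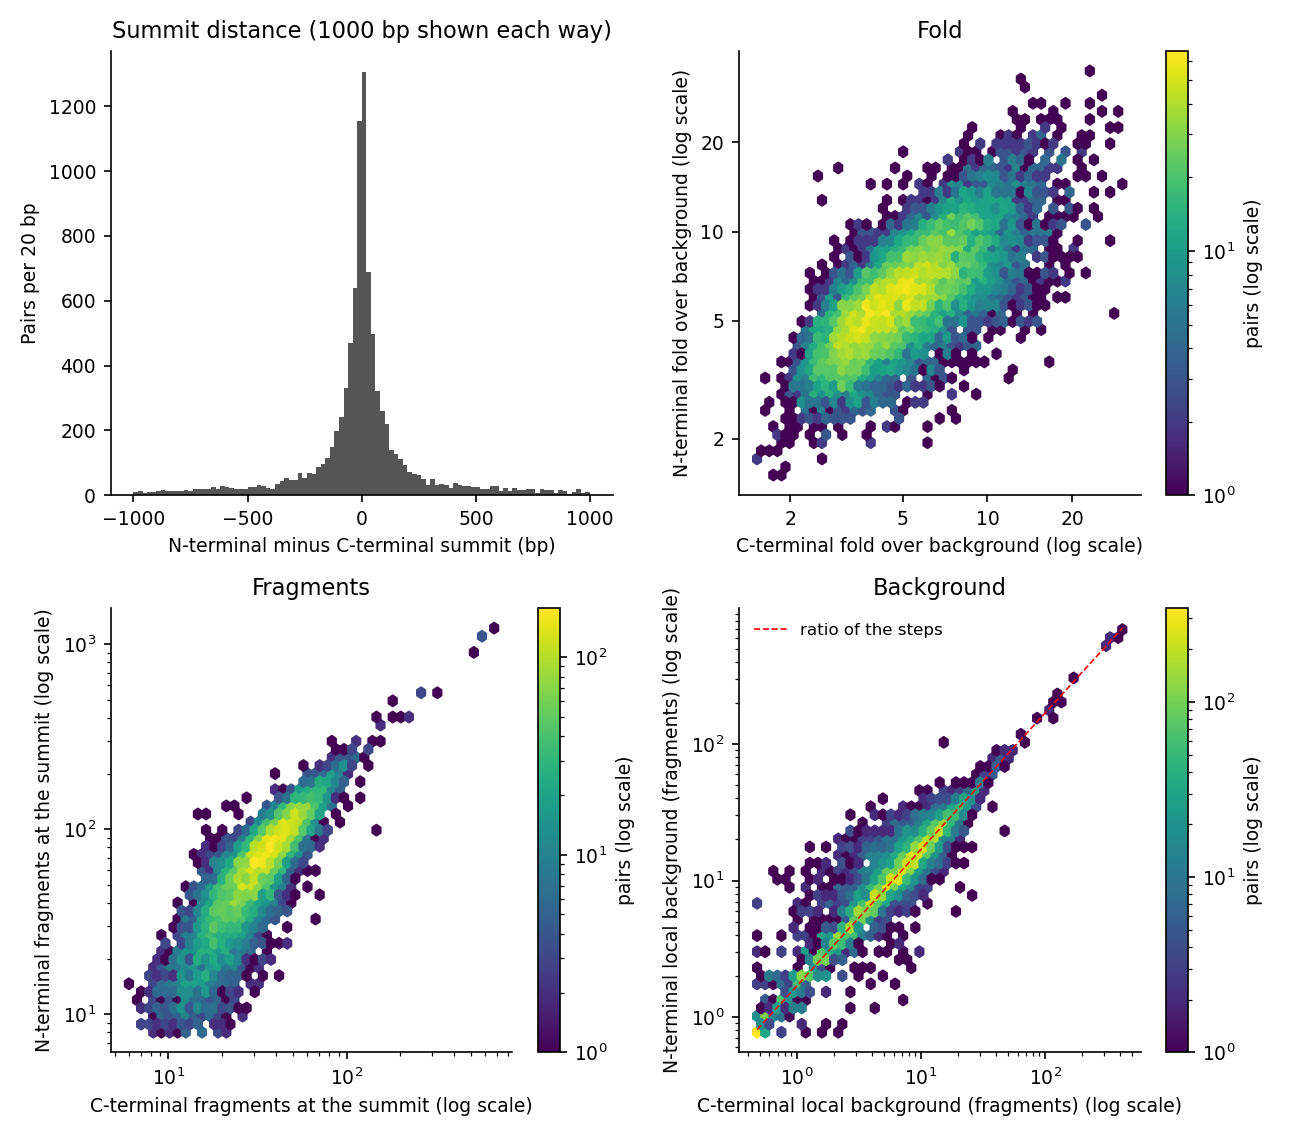
The 9860 mutual pairs: signed distance of the summits in bp (top left, 20 bp bars), and C-terminal (x axis) against N-terminal values (y axis, log scales, colour for the number of pairs) of fold, summit fragments and local background. The distances centre on 0 with a median size of 65 bp, and the background lies along the dashed line at a ratio of 1.69 more tightly than the fold does.

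The places ranked highest by both antibodies had a background of 1 step or less. They were chosen by fold, which is divided by the background, so their low background goes with the choice and is no finding. First was the peak on chromosome 19 at 1183282 to 1184211, where the C-terminal antibody had 41 fragments (exact 95% Poisson interval 29.4 to 55.6, counting error only) on a background of 0.477, a fold of 28.4. The N-terminal antibody had 43 fragments there (31.1 to 57.9) on 0.773, a fold of 24.8, with a summit 90 bp away. On chromosome 15 at 66161391 to 66162532 the folds were 23.0 and 34.9, from 35 fragments (24.4 to 48.7) and 67 fragments (51.9 to 85.1), and the summits lay 2 bp apart. The N-terminal fold at this place was the largest of its list. A further peak of chromosome 15, from 90753591 to 90754801, had 36 C-terminal and 51 N-terminal fragments. The last places were one of chromosome 9 with 44 and 42 fragments, from 130716892 to 130717775, and one of chromosome 17 with 41 and 39, from 19099489 to 19100350. At 4 of the 5 places the ratio of N-terminal to C-terminal fragments lay between 0.95 and 1.42, under the depth ratio of 1.66. Such ratios were usual at low background: the median ratio was 1 over the 394 pairs with a C-terminal background below 1 step, 1.29 at 1 to 2 steps, 1.57 at over 2 to 4, 1.85 at over 4 to 8, 2.07 at over 8 to 16 and 2.22 over 16 steps.

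A few places ranked high with one antibody and low with the other although the summits lay within 100 bp. On the X chromosome at 48929696 to 48930458 the C-terminal antibody had 15 fragments (8.40 to 24.7) and a fold of 3.66, the N-terminal antibody 61 fragments (46.7 to 78.4) and a fold of 10.8, which is 19.3% against 94.9% of the way up the lists. The same fragment counts occurred between 48338857 and 48339733 on chromosome 2, where the C-terminal fold was 3.24 and the N-terminal fold 8.10. Chromosome 1 held 56 and 220 fragments between 3817400 and 3817899, at folds of 2.92 and 7.25. This place lies in the megabase of chromosome 1 named above for its larger share of the N-terminal list. The counting intervals of the antibodies did not overlap at any of these 3 places, nor with the C-terminal intervals scaled by the depth ratio, and the ratios of the fragments were 4.07, 4.07 and 3.93.

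In the other direction the counts were smaller. On chromosome 14 at 103051430 to 103052162 the C-terminal antibody had 16 fragments (9.15 to 26.0) and a fold of 11.4, the N-terminal antibody 8 fragments (3.45 to 15.8) and a fold of 4.61. Chromosome 3 held 24 and 15 fragments between 48718470 and 48719753, at folds of 8.68 and 3.90. Chromosome 15 held 37 and 26 between 102515266 and 102516756, at folds of 6.61 and 3.05. The unscaled counting intervals overlapped at all 3 places. With the C-terminal intervals scaled by the depth ratio they overlapped on chromosome 14 only: chromosome 3 then had 25.5 to 59.2 against 8.40 to 24.7, and chromosome 15 had 43.2 to 84.5 against 16.98 to 38.1. All 6 were picked for their difference in rank. That difference is therefore no finding, nor is the overlap of the intervals or its absence, scaled or not. The depth ratio of 1.66 also differed from the median fragment ratios by background, which ran from 1 below 1 step to 2.22 over 16 steps.

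The share of peaks with a partner moved with the local background, in opposite directions in the lists. Background was counted in steps to put both lists on 1 scale. This assumes that the same control library entered both calls, which was not tested. Of the 2020 C-terminal peaks with a background below 1 step, 19.6% (Wilson interval 17.9 to 21.3) overlapped an N-terminal peak. The share rose through 42.6%, 59.8%, 83.4% and 94.7% at 1 to 2, over 2 to 4, over 4 to 8 and over 8 to 16 steps to 97.9% (97.3 to 98.3) of the 2857 peaks over 16 steps. In the N-terminal list it fell from 69.3% (65.5 to 73.0) of 584 peaks below 1 step through 65.1%, 61.5%, 54.9% and 51.6% to 43.2% (42.0 to 44.4) of 6495 peaks over 16 steps. Outside chromosome 19 the shares at the ends were 17.9% and 97.9% (C-terminal) and 68.1% and 42.1% (N-terminal). The numbers of peaks with a partner were similar in both lists. They were 395 C-terminal and 405 N-terminal peaks below 1 step, and 2796 and 2805 over 16 steps. The opposite trends thus restate how many peaks each list had in a class, and are no separate result.

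The lists were made up of different peaks in this respect. Peaks below 1 step were 14.2% of the C-terminal and 2.99% of the N-terminal list, and peaks over 16 steps 20.1% and 33.3%. At the floor, the lowest background of a list, stood 1700 C-terminal and 424 N-terminal peaks. The C-terminal ones had a median of 11 fragments, a fold of 8.12 and a gap of 11.8 kb to the next peak. The N-terminal ones were similar, with medians of 13 fragments, a fold of 7.90 and a gap of 9.16 kb. Peaks at the floor were thus isolated as well as weak in fragments in both lists, and it was their number that differed. Fold fell with background in both lists, with Spearman correlations of −0.78 (C-terminal) and −0.70 (N-terminal) over the peaks of a list.

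**Figure D5:**
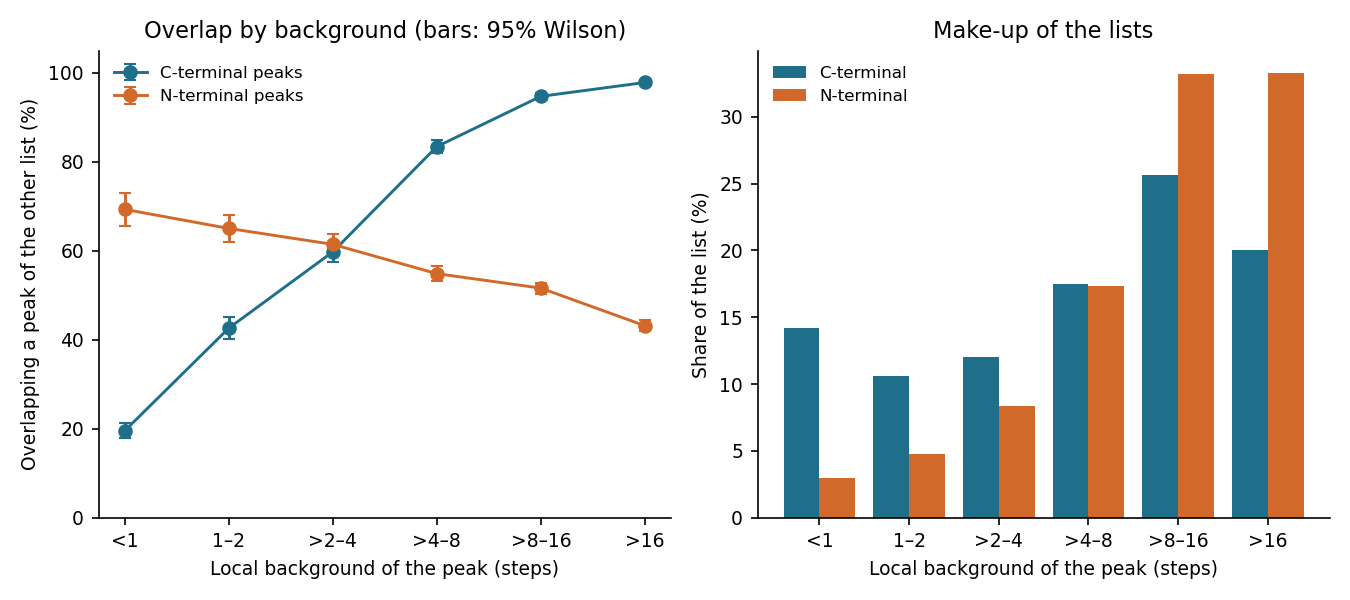
Share of each list's peaks that overlap a peak of the other list (left, %, bars for the 95% Wilson interval) and share of the list (right, %), by local background in steps. The C-terminal share climbs from 19.6% to 97.9% while the N-terminal share falls from 69.3% to 43.2%, and 14.2% of the C-terminal but 2.99% of the N-terminal peaks stand below 1 step.

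Within a class of background the peaks with more fragments had a partner more often in both lists. Below 1 step 8.51% of the C-terminal peaks at or under the median of 11 fragments and 34.9% of those above it overlapped an N-terminal peak. Over 16 steps the shares were 97.0% and 98.8%. For N-terminal peaks they were 63.1% and 76.4% below 1 step and 21.1% and 65.7% over 16 steps. Ranked by fold alone the lists went opposite ways: from the lowest to the highest quartile of fold the share with a partner went from 93.4% to 61.0% in the C-terminal list and from 20.6% to 77.0% in the N-terminal list. Fold fell with background in both lists, so the ranking by fold is not independent of the classes by background. The depth of the libraries differed with the antibody, and its part in these shares was not tested.

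Peaks without a partner differed between the lists. A partner was present for 73.0% of the C-terminal and 51.4% of the N-terminal list. The 3842 C-terminal peaks alone had medians of 13 fragments and 1.23 steps of background, and the 9488 N-terminal peaks alone 53 fragments and 13.0 steps. Many of both kinds lay near peaks of the other antibody. For scale, 67.7% of all C-terminal and 68.9% of all N-terminal peaks lay within 10 kb of a peak of their own list. The median distance to the nearest N-terminal peak was 6.90 kb for the C-terminal ones, with 57.8% within 10 kb and 90.8% within 100 kb. From N-terminal peaks alone to the nearest C-terminal peak it was 10.2 kb, with 49.5% and 80.7%. To the nearest peak of their own list the medians were 8376.5 bp for C-terminal and 4947.5 bp for N-terminal peaks alone. By these medians the nearer list was the N-terminal one for both kinds, and it is also the longer list. More than 1 Mb from any peak of the other antibody lay 24 C-terminal and 343 N-terminal peaks.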

How the data were processed

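The data were the authors' deposited peak lists, 1 per library. The submitters' processing notes name MACS2, Bowtie2, Trim Galore and Picard and the build hg19, without roles or versions. The peak names state a q limit of 0.001. The fold, a ratio of summit fragments to local background, and the −log10 p and −log10 q of each peak were deposited by the authors. Coordinates are 1-based on hg19. No genome or annotation of hg19 was used, so no gene is named and no sequence shown.

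The members and measures were chosen with earlier results of these data known. Chromosomes 1 to 22, X and Y were kept, which left out 1 mitochondrial C-terminal peak. Fragments k and background b were recovered from fold = (k + 1)/(b + 1) and p = P(Poisson(b) > k). A whole k met the deposited −log10 p within 0.002 for 100% of the peaks of both lists, and more than 1 k did so for 0.046% of the N-terminal peaks. The step of the background is the value on whose whole multiples (within 0.02 steps) most backgrounds under 8 fell. Of all backgrounds, 49.5% (C-terminal) and 68.6% (N-terminal) fell on it. Depth is the lowest background times the assumed genome size, over the narrowest peak, which stands for the fragment length. Bins run from the first base of a chromosome to the last peak of any list, and a peak counts where its summit lies. Tied bins were ordered by position. The work used scipy 1.17.1, numpy 2.4.6, matplotlib 3.10.9 and pandas 2.3.3 under Python 3.11.15, and the measures were tested on simulated lists.

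Named regions were the 5 mutual pairs with the highest product of fold percentiles, the 3 with the largest difference in percentile each way among pairs with summits within 100 bp, the 3 densest bins per list, the 3 bins of 1 Mb with the largest difference in share each way, and the widest peaks. Alternatives changed the list length, the q limit, the pair rule, the bins and the correlation, and left out chromosome 19 or the top 1% by fold. The classes by background were chosen after seeing the data.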

Additional observations from a re-analysis of the deposited data

How the results depend on the processing

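Of 60 alternative settings of the 8 main values, 46 left the value in its direction and within its spread, 13 moved it further and 1 turned its direction. The spread is the 95% binomial interval for medians and shares and the SD over chromosomes for correlations. The binomial interval takes each peak as a separate draw, so it is no spread between libraries. With the same number of peaks in both lists, a cut of weak N-terminal peaks alone, the ratio of the median gaps turned from 0.82 to 1.03. The width ratio then went from 1.11 to 1.23 and the difference in the densest 100 kb bins from 6.42 to 3.93 points. Over pairs alone the width ratio was 1.22. The ratio of the gaps was 0.88 between summits and 0.91 with peaks within 1 kb merged. The median summit distance of 65 bp became 61 bp at a −log10 q of at least 5, 73 bp over all overlapping pairs, 54 bp at a reciprocal overlap of 50% and 60 bp where each peak overlapped exactly 1. The 100 kb correlation of 0.74 became 0.62 without bins empty in both lists, 0.92 by Pearson on counts and 0.88 on log2(count + 1), and the 1 Mb correlation of 0.87 became 0.98 by Pearson. The causes were not tested.

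Of 48 further alternatives, added after seeing the data, 21 moved a value beyond its spread and 0 turned one. With the same number of peaks the shares with a partner from below 1 to over 16 steps were 9.01% and 93.4% (C-terminal) and 76.3% and 57.8% (N-terminal), and at a reciprocal overlap of 50% 17.1% and 69.3%, and 61.6% and 30.9%. No paired analysis was possible because each antibody had 1 library. The C-terminal depth limits what can be said of N-terminal peaks without a partner, and a place without a peak is not shown to lack NuMA.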
